A study of Apis mellifera with 4 samples.

Results

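The genes described here are those of the honeybee sex determination pathway, found by searching the gene names of the 60 hr table for csd, fem, tra2, dsx, sxl, fru and ix. Of the 7 names, 5 had a row (Csd, Fem, tra2, Dsx and Fru), among 11156 genes in the table, of which 9578 had at least 1 exon read. Sxl and ix were not analysed here, because no row carries those names. RNA-seq was carried out on whole Apis mellifera larvae of 60 hr, with 2 samples raised as queens and 2 samples raised as workers, each a pool of 20 larvae. All larvae were female offspring of singly inseminated queens from a closed population. The queen larvae had been grafted into queen cells in a hive without a queen, while the worker larvae were left in their own cells in another hive with a queen. Grafting, hive and diet therefore differ together with caste and cannot be told apart. No males were included, so the values below compare 2 female castes and not the sexes.

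In the honeybee, sex is set by the complementary sex determiner, Csd: larvae with different alleles of it become female, and larvae with a single allele become male. An active Csd protein directs the female splicing of Fem (feminizer, the counterpart of transformer in flies), of which Csd is a duplicated copy lying next to it. The Fem protein, together with the splicing cofactor tra2, directs the splicing of Dsx (doublesex), a transcription factor made in male and female forms. Fru (fruitless) is a further transcription factor, known in Drosophila for sex-specific forms in the nervous system. Because the pathway works by splicing, the summed reads of a gene give its abundance and not which form was made.

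Each library held 4949093 to 5476218 reads on exons, and 89.6 to 90.2% of these matched a single place in the genome. The libraries of the 2 castes differed in composition. The 10 most abundant genes took 6.88 and 7.02% of exon reads in the queens, against 24.9 and 23.4% in the workers. Of 12 tissue marker names searched, 6 were matched, and none of the 6 was at 0 in any sample. The 4 matched fat body markers (HEX70b, Hex70a, Hex110 and Vg) summed to 8343 and 9176 RPKM in queens and to 74380 and 67719 RPKM in workers. RPKM is the number of exon reads scaled by exon length and by the mapped reads of the library. Syt1, a gene of nerve terminals, and vas, a germ cell gene, stayed at or below 3.47 RPKM, and no muscle marker was matched. The part of these composition differences in the results below was not tested, and in whole larvae fewer cells of a type and less RNA per cell cannot be told apart.

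Transcripts of tra2, Fem and Fru were abundant, that of Csd was close to the median gene and that of Dsx was scarce. By mean RPKM over the 4 samples, tra2 (49.5) and Fem (48.8) stood at percentiles 85.6 and 85.4 of the genes with reads, Fru (36.8) at 80.6, Csd (13.0) at 56.2 and Dsx (1.50) at 21.4. The median of all genes with reads was 10.3 RPKM. Within single samples, Csd stood at percentiles 58.2 and 65.9 in queens and at 44.6 and 49.5 in workers. The levels of tra2 and Fem could not be separated, since Fem was above tra2 in queens 2 and workers 1 and below it in the other samples. In queens Fru lay below both, whereas in workers the 3 genes lay between 32.5 and 38.7 RPKM and overlapped. Csd was below Fem, tra2 and Fru in every sample, and Dsx was below Csd in every sample. Female larvae carry different alleles of Csd, while reads were mapped to a single genome build. Whether reads of other Csd alleles failed to map was not tested.

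Csd, the primary signal of the pathway, had 16.3 and 21.3 RPKM in queens, against 6.66 and 7.85 RPKM in workers (122 and 152 exon reads against 51 and 59). Both queen samples were above both worker samples. Fem, its splicing target, had 59.8 and 65.0 RPKM in queens and 37.9 and 32.5 RPKM in workers (530 and 549 exon reads against 343 and 289). Here too the castes did not overlap. The cofactor tra2 had 61.9 and 61.4 RPKM in queens and 36.1 and 38.7 RPKM in workers, again without overlap. Dsx, the final transcription factor, had 1.39 and 1.64 RPKM in queens and 1.96 and 1.00 RPKM in workers, from 18 to 36 exon reads per sample. Its castes overlapped, and workers 1 held the highest and workers 2 the lowest value. Fru had 40.2 and 37.5 RPKM in queens and 34.1 and 35.2 RPKM in workers, with queens slightly above workers on this scale. On the RPKM scale genes in general leaned to queens. By limma on log2(RPKM + 1), the median log2 fold change of tested genes was 0.47, queens over workers. The share of all genes without overlap was not taken on this scale.

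**Figure D1:**
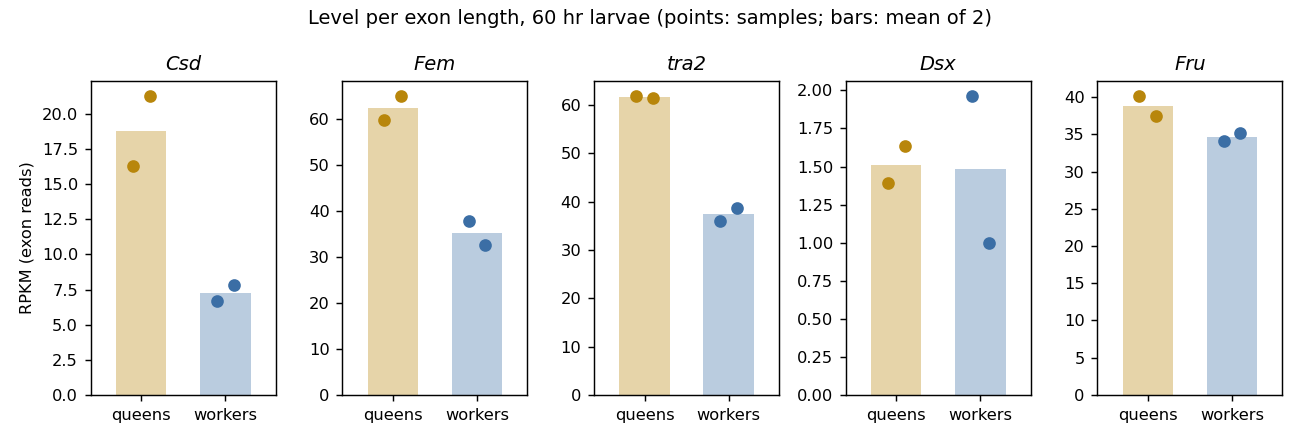
RPKM of the 5 genes in the queen and worker samples of 60 hr larvae, with 1 panel per gene and its own vertical axis from 0. Points are samples and bars are means of 2 samples. Csd, Fem and tra2 were higher in both queen samples, Fru differed little and the Dsx samples overlapped between castes. On the RPKM scale the median tested gene also leaned to queens.

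Since Csd and Fem are neighbouring copies of a common ancestor, reads could match both genes. In Amel_4.5 coordinates their gene regions lie on the same scaffold, Csd at 458461 to 470549 and Fem at 481313 to 492402, with 10763 bases and 1 gene model without reads (LOC100578464) between them. The Csd model has 8 exons summing to 1212 bases and the Fem model 10 exons summing to 1432 bases. Few exon reads of either gene matched several places. For Csd these were 14 and 14 reads in queens and 6 and 1 in workers, 35 of 384 in all, so that 90.9% of its exon reads matched a single place. The single-match share was 88.5% (Wilson 95% interval 81.7 to 93.0) and 90.8% (85.1 to 94.4) in queens, and 88.2% (76.6 to 94.5) and 98.3% (91.0 to 99.7) in workers. These intervals, which cover counting error only, overlapped among all 4 samples. For Fem 3 and 6 reads in queens and 3 and 4 in workers matched several places, 16 of 1711 in all, and 99.1% were single-match. By comparison, the median gene with at least 100 exon reads had 99.8% single-match exon reads, and 26.5% of such genes had a lower share than Csd. The other places matched by these reads are not given in the files, so whether Csd and Fem shared reads with each other was not tested.

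Outside the exons the genes differed more. Fem held 235 and 229 several-match reads outside its exons in queens and 171 and 134 in workers, so that 71.2% of the reads of its whole gene region were single-match. At the end of its region, 3379 bases overlap the gene model LOC551408. That gene had 131 and 131 exon reads in queens and 78 and 107 in workers, with a log2 fold change of 0.03 ± 0.22 (SE). Csd had only 12 several-match reads outside exons over the 4 samples.

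Fru stood apart in its gene region. It held 2905 and 2298 several-match reads outside exons in queens and 2585 and 2829 in workers, against 408 and 373 single-match exon reads in queens and 367 and 356 in workers. Of the 12526 reads in its region, 13.6% were single-match, and 1.17% of 7075 genes with at least 100 exon reads had a lower share. The Fru region spans 68134 bases, of which 50024 overlap the gene model LOC724278, which had at most 2 exon reads in a sample. The mapping software also listed 21 and 24 putative exons for Fru in queens and 29 and 26 in workers, where the other 4 genes had 0 or 1. Within the Fru exons, 88.1% of 1708 reads were single-match. The tra2 exons and the Dsx exons held no several-match read (0 of 2821 and 0 of 107). The tra2 region overlaps LOC552226 and LOC725287 by 367 and 346 bases, and the files do not state whether reads were counted by strand.

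**Figure D2:**
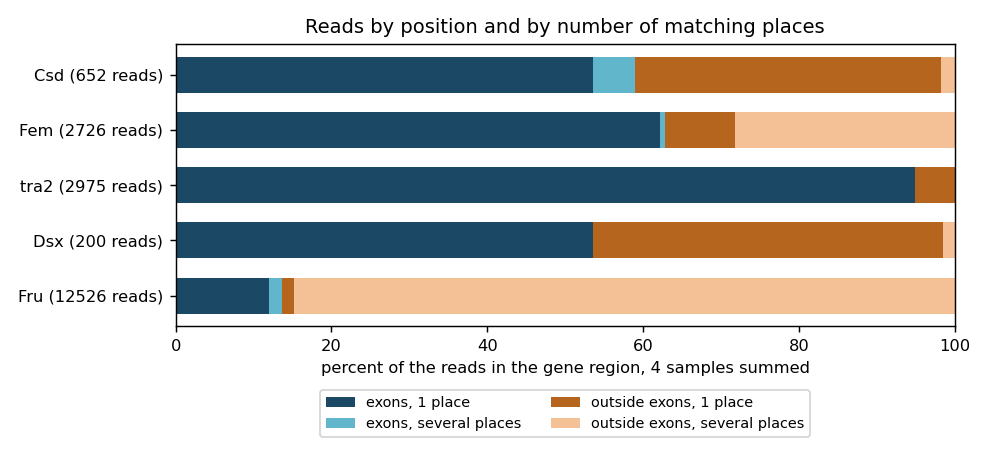
Reads in the region of each of the 5 genes, summed over the 4 samples and shown as percent of the gene's reads, by position (exons or outside exons) and by number of matching places. Several-match reads outside exons made up 84.8% of the Fru reads and 28.2% of the Fem reads, against 1.84% of the Csd reads and none of the tra2 reads.

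The main question of the study was which genes differ between queen and worker larvae. Exon reads were compared with edgeR's quasi-likelihood test after TMM scaling, which sets libraries by the bulk of genes, with Benjamini-Hochberg adjustment over 7833 tested genes. All 5 genes were tested and none passed an adjusted p of 0.05. In that comparison 6.32% of tested genes were called higher in queens and 12.0% higher in workers. At an unadjusted p below 0.05 there were 2 of the 5 genes (Csd and Fru), where 34.1% of all tested genes were under that value. DESeq2 also called 0 of 5, with 1 of them at an unadjusted p below 0.05. limma on log2(RPKM + 1), which keeps the scaling by all mapped reads, called 3 of 5 (Csd, Fem and tra2) higher in queens, as it did 44.0% of the genes tested in that way.

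Csd had the largest estimate of the 5 genes. Its TMM-scaled CPM (exon reads scaled to the effective library size) were 19.3 and 25.7 in queens and 11.3 and 13.6 in workers, giving a log2 fold change of 0.85 ± 0.23 (SE) with an edgeR adjusted p of 0.0609. Across the alternatives on its own reads, its estimate was lowest at 0.55, on junction reads (edgeR adjusted p = 0.164). It was highest at 1.39, under library totals (edgeR adjusted p = 0.00781). With Csd and Fem counted as a single gene the estimate was 0.41, but most of those exon reads were of Fem (1711 against 384). The Csd estimate was 1.05 without queens 1 and 0.64 without queens 2. It was 0.72 without workers 1 and 1.00 without workers 2. On single-match exon reads it was 0.79 ± 0.26 (edgeR adjusted p = 0.0893).

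Fem had 83.7 and 92.7 CPM in queens and 75.7 and 66.4 CPM in workers, and tra2 had 141 and 142 CPM in queens and 117 and 128 CPM in workers. The log2 fold changes were 0.31 ± 0.13 for Fem (edgeR adjusted p = 0.152) and 0.21 ± 0.11 for tra2 (edgeR adjusted p = 0.242). Fru had 74.2 and 70.6 CPM in queens and 89.9 and 94.9 CPM in workers, so that its log2 fold change was -0.35 ± 0.11 (edgeR adjusted p = 0.0813). When reads outside exons were counted too, Fru was called at -0.47 (edgeR adjusted p = 0.0473), where 12.9% of genes were called higher in workers. Of the Fru reads in that count, 84.8% were several-match reads outside exons, and single-match reads outside exons gave -0.13 (edgeR adjusted p = 0.770). For Fru the order of the castes on exon reads was opposite on the TMM scale and on the RPKM scale, which divides by all mapped reads. Dsx had 3.95 and 4.73 CPM in queens and 7.95 and 4.14 CPM in workers. Its estimate was -0.48 ± 0.41 (edgeR adjusted p = 0.459), and no difference was detected from 18 to 36 exon reads per sample. On the TMM scale Csd, Fem and tra2 did not overlap between castes with queens higher, as did 31.7% of tested genes, and Fru did not overlap with workers higher, as did 32.1%.

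The scaling decided which genes were called. With library totals in place of TMM factors the median of all tested genes moved to 0.55, and 47.3% of genes were called higher in queens and 6.20% higher in workers. On that scale 3 of the 5 genes were called, all higher in queens: Csd at 1.39, Fem at 0.85 and tra2 at 0.75 (edgeR adjusted p = 0.00781, 0.00592 and 0.00591). Fru and Dsx changed sign there, to 0.19 and 0.057, and were not called. With totals that left out the 10 most abundant genes the median was 0.25, and Csd (1.10), Fem (0.56) and tra2 (0.45) were called as well, where 18.4% of tested genes were called higher in queens and 8.37% higher in workers. A scaling moves all genes and their median by nearly the same amount, so the distance of a gene from the median is set by construction and is given as a description. Csd lay 0.85 above the median under TMM factors and 0.84 above it under library totals. Fem lay 0.30 and tra2 0.20 above the median on both scales, and Fru lay at -0.36 on both.

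**Figure D3:**
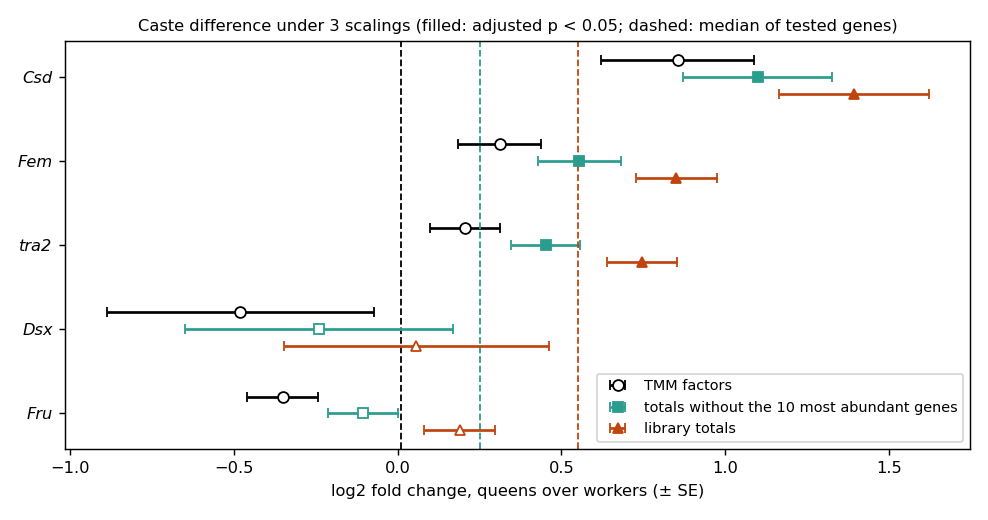
Log2 fold change, queens over workers, of the 5 genes under TMM factors, library totals without the 10 most abundant genes, and library totals. Error bars are SE, filled symbols passed an adjusted p of 0.05, and dashed lines mark the median of tested genes (0.01, 0.25 and 0.55). The genes shift together with the median, and Csd lies farthest above it.

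Ratios between these genes within a sample do not depend on the scaling, and Fem was taken as the common denominator. Csd reached 0.272 and 0.327 of the Fem level per exon length in queens, against 0.176 and 0.241 in workers. The castes did not overlap, the mean ratio being 0.300 ± 0.039 in queens and 0.208 ± 0.046 in workers (SD, n = 2 each). Of the other tested genes, 10.5% had a ratio to Fem that was higher in both queen samples. The gap was small beside the counting intervals: queens 1 spanned 0.223 to 0.331 and workers 2 spanned 0.182 to 0.319. On single-match reads queens 1 and workers 2 lay at 0.242 and 0.240. Fru was at 0.672 and 0.577 of the Fem level in queens and at 0.899 and 1.08 in workers, without overlap. Dsx was at 0.0233 and 0.0251 of the Fem level in queens and at 0.0518 and 0.0307 in workers, also without overlap but from few reads. Its counting intervals, 0.0172 to 0.0368 in queens 2 and 0.0191 to 0.0494 in workers 2, overlapped. For Fru and Dsx the ratio was higher in both worker samples. Of the 4 genes set against Fem, 3 did not overlap in either direction, beside 62.6% of the tested genes. The ratio of tra2 to Fem was 1.04 and 0.945 in queens and 0.952 and 1.19 in workers, and overlapped. With 2 samples per caste an exact permutation test cannot go below a two-sided p of 0.333.

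**Figure D4:**
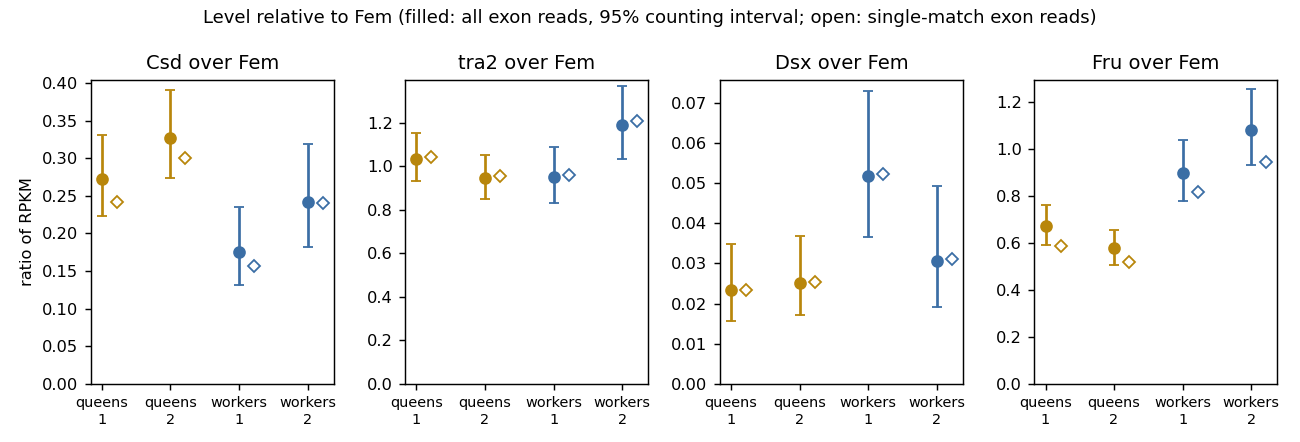
Ratio of the RPKM of Csd, tra2, Dsx and Fru to that of Fem in each sample, with filled points for all exon reads and 95% counting intervals, and open diamonds for single-match exon reads. Csd over Fem was higher in the queen samples, Fru and Dsx over Fem were higher in the worker samples, and tra2 over Fem overlapped. The counting intervals of queens 1 and workers 2 overlapped for Csd, and those of queens 2 and workers 2 for Dsx.

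Reads across exon-exon junctions come from spliced RNA. They made up 45.1% of the Csd exon reads, above 96.9% of genes with at least 100 exon reads, where the median gene had 15.7%. Csd had 60 and 56 junction reads in queens and 29 and 28 in workers, and Fem had 131 and 154 in queens and 110 and 78 in workers. The junction share of Csd was 49.2 and 36.8% in queens and 56.9 and 47.5% in workers, and overlapped. Junction reads made up 27.6% of the Fem exon reads, 13.2% of those of Fru, 10.4% of those of tra2 and 7.48% of those of Dsx, the last from 8 reads. A gene model with more exons per exon length offers more junctions, so these shares do not compare how far genes were spliced. The models have 8 exons in 1212 bases for Csd, 10 in 1432 for Fem and 6 in 1890 for Fru. Those of tra2 and Dsx have 6 in 2325 and 8 in 2904. The shares were not corrected for this. When only junction reads were tested the log2 fold change was 0.55 ± 0.22 for Csd and 0.14 ± 0.21 for Fem (edgeR adjusted p = 0.164 and 0.714). From single-match reads outside exons it was 0.63 ± 0.25 for Csd and 0.34 ± 0.23 for Fem (edgeR adjusted p = 0.132 and 0.349). Both kinds of reads gave a positive estimate for Csd and neither passed the test.

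Single transcripts of these genes were also listed, in a table of 2579 transcripts that holds only transcripts the authors had selected as higher in queens, so their direction is not a finding. It has 4 transcripts of 3 of the genes. The 1392-base Csd transcript had 65 and 80 reads in queens and 25 and 33 in workers. The 1786-base Fem transcript had 317 and 367 reads in queens and 235 and 163 in workers. Of tra2, a 2325-base transcript had 763 and 746 reads in queens and 452 and 482 in workers, and a 526-base transcript had 161 and 118 reads in queens and 88 and 84 in workers. Of the reads of the longer tra2 transcript, 543 and 529 in queens and 317 and 364 in workers were counted as unique to that transcript. That table gives 2 transcripts for Csd, 2 for Fem and 3 for tra2, and its Csd and Fem transcripts are longer than the exon models of the gene table (1212 and 1432 bases). The gene table, by contrast, lists 1 transcript each for Csd, Fem and tra2, 3 for Dsx and 2 for Fru, and 1 or 2 were detected for Dsx and Fru. The male and female forms of Fem and Dsx are not named in either table and were not told apart here.

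The named genes whose profile over the 4 samples was most like that of Csd were pr-set7, ade5 and Nep3, at Euclidean distances of 0.21, 0.21 and 0.26 in centred log2 CPM. Those most like Fem were RpII140, hop and flfl, at distances of 0.03 or 0.04. These are descriptions over 4 samples.

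Further genes were searched in 5 lists written from Drosophila, chosen with earlier results of these data known. Whether these genes act in the honeybee pathway was not tested. Besides the 5 genes above, 25 of 61 names were matched and tested, of which 6 were called higher in queens and 2 higher in workers, beside 6.32% and 12.0% of all tested genes. They had a median log2 fold change of 0.21, where the median of all tested genes was 0.01. Leaving out workers 2 left 1 call among the listed genes and 298 among all genes, against 1437 with every sample. Leaving out workers 1 left 2 and 465, leaving out queens 1 left 4 and 1239, and leaving out queens 2 left 5 and 1314. In the list of Sxl and m6A splicing cofactors, 2 of 6 tested genes were called higher in queens, and 5 of the 6 estimates were positive. The gene vir, part of the complex that adds m6A to RNA in Drosophila and needed there for the splicing of Sxl, had 45.0 and 41.8 RPKM in queens and 18.5 and 13.6 RPKM in workers (log2 fold change 0.92 ± 0.16, edgeR adjusted p = 0.0194). U2af50, the large subunit of the factor that marks splice acceptor sites, had 61.9 and 60.2 RPKM in queens and 32.6 and 27.2 RPKM in workers (0.52 ± 0.12, edgeR adjusted p = 0.0429). Both queen samples were above both worker samples in RPKM for the 2 genes. The share of all genes without overlap was not taken in RPKM, a scale on which genes in general leaned to queens. For the TMM scale alone it is known: 31.7% of all tested genes were without overlap and higher in queens. The splice factor Snf, also a cofactor of Sxl in flies, did not pass the test, at 0.53 ± 0.13 (edgeR adjusted p = 0.0501). The gene how of the same list lay in the other direction and did not pass either, at -0.69 ± 0.20 (edgeR adjusted p = 0.0715).

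Among the SR and related proteins, a list of splicing regulators that includes tra2 itself, 1 of 6 was called and it was higher in workers: Rsf1, at -0.51 ± 0.10 (edgeR adjusted p = 0.0285). Its RPKM was 47.2 and 47.4 in queens and 46.9 and 47.7 in workers. With library totals its estimate was 0.03, with the opposite sign and no call. A list written around the Drosophila X-signal gave 2 calls of 5, both higher in queens. Of its names, sc, run, sisA and upd1 were not matched. Emc, an inhibitor of helix-loop-helix factors, had 91.3 and 80.9 RPKM in queens and 38.5 and 44.8 RPKM in workers (0.53 ± 0.13, edgeR adjusted p = 0.0474). The helicase mle belongs to the dosage compensation complex and is counted in the list of that complex too. It had 23.9 and 25.0 RPKM in queens and 12.4 and 11.8 RPKM in workers (0.50 ± 0.11, edgeR adjusted p = 0.0325). Of that complex, 2 of 3 tested genes were called, mle and msl-3. The chromodomain protein msl-3 had 17.6 and 17.0 RPKM in queens and 8.20 and 7.16 RPKM in workers (0.66 ± 0.15, edgeR adjusted p = 0.0394).

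In the list of DMRT genes and of partners and targets of Dsx and Fru, 1 of 7 was called in each direction. MED23, a Mediator subunit, had 35.2 and 37.2 RPKM in queens and 19.3 and 15.4 RPKM in workers (0.55 ± 0.14, edgeR adjusted p = 0.0484). Vg, the yolk protein precursor made in the fat body, had 0.0599 and 0.252 RPKM in queens and 25.3 and 16.6 RPKM in workers (-7.56 ± 0.46, edgeR adjusted p = 0.000875). It was called on 2 and 8 exon reads in queens against 862 and 556 in workers, and it moved with the other fat body markers given above.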

How the data were processed

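RNA-seq of 60 hr queen and worker larvae, 2 pooled samples of each caste, was used. Samples were grouped by their labels. The authors used CLC Genomics Workbench to map 50-base reads to the Amel_4.5 build. The deposited counts are reads on exons, on exons with introns and on junctions of each gene, given both with and without several-match reads. The RPKM were computed by the authors from exon reads, exon length and reads mapped to genes. The deposited median coverage, a signal, and the numbers of exons and transcripts are also the authors'. Deposited fold changes and p-values of the authors' own comparison were not used. How CLC assigned several-match reads, and whether strand was used, is not given in the sources used here.

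Exon read counts were compared, queens over workers, with edgeR 4.0.16 under R 4.3.3 (TMM factors, filterByExpr, quasi-likelihood test, Benjamini-Hochberg, called at an adjusted p below 0.05). The study used the Baggerly test, for which edgeR stands in. SE is the absolute log2 fold change over the root of F. Alternatives used DESeq2 1.42.0, limma 3.58.1 on log2 RPKM with pseudocounts of 1 and 0.1, other scalings, filters and kinds of reads, a replicate block, and leaving out each sample. Junction reads and reads outside exons were chosen after seeing the data. The edgeR step was tested on simulated data. Replicate samples differed beyond counting noise, and p-values measure the spread between these pools. All 5 genes were named. Listed genes were named where called (Snf and how were added after their values were seen), as were the 3 named genes nearest to Csd and to Fem in centred log2 CPM. The genes and lists were chosen with earlier results of these data known. Sequences were not used here. Figures were drawn with matplotlib 3.10.9.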

Additional observations from a re-analysis of the deposited data

Results flagged for a closer look

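Signals outside the exon counts drew attention for 2 genes. The mean number of reads outside exons that match several places was 192.25 per sample for Fem and 2654.25 for Fru. The mean number of putative exons of Fru was 25.0 per sample. The exon read comparison of castes used neither measure, while the count of exons with introns includes the several-match reads.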

How the results depend on the processing

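Under 17 to 19 alternatives per gene, no estimate for Csd, Fem or tra2 changed sign, while 5 for Dsx and 3 for Fru did. Library totals gave 1.39, 0.85, 0.75, 0.057 and 0.19 for Csd, Fem, tra2, Dsx and Fru, with 3 of these 5 genes, 19 listed genes (tra2, which is also in a list, counted here) and 4191 genes called (1437 under TMM factors). Totals without the 10 most abundant genes gave 1.10, 0.56 and 0.45 for Csd, Fem and tra2, with 3 of the 5 called. limma gave 1.25, 0.81, 0.71, 0.044 and 0.16 in the same order on log2(RPKM + 1) (3 of 5, 19 listed and 3970 genes called), and 1.35, 0.83, 0.72, 0.094 and 0.16 on log2(RPKM + 0.1) (3, 19 and 3893). With introns counted, Fru was called at -0.47 (edgeR adjusted p = 0.0473), the only 1 of the 5, on counts that were 84.8% several-match reads outside exons, and the single-match share of Fem was 71.2%. Junction reads called 688 genes. Single-match reads outside exons called 495 and gave 0.29 for Dsx. The other alternatives in scaling, filter and tool kept each gene's sign and side of the threshold. Leaving out each sample gave 0.64 to 1.05 for Csd, -0.87 to 0.065 for Dsx (0.065 without workers 1), 0.22 to 0.41 for Fem, 0.14 to 0.27 for tra2 and -0.39 to -0.31 for Fru, with 0 to 1 of the 5 genes, 1 to 5 listed genes and 298 to 1314 genes called. Where 1 sample was left, it was assumed to vary like the other caste. The correlation of deviations of same-numbered samples was -0.04, so the numbers were not taken to pair samples. With a replicate block Csd was 0.85 (edgeR adjusted p = 0.0560), 0 of the 5 and 4 listed genes were called, against 8 listed genes without it, and no call of the 5 genes changed. The cause of these differences was not tested. Dsx rested on 107 exon reads in all.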
